A study of Homo sapiens with 12 samples.

Results

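The 45 genes described here encode the protein machine that joins chromosomes to spindle microtubules and the checkpoint that delays anaphase until every chromosome is attached. They are the rows of the deposited count table whose gene symbol equals 1 of 45 names, all 45 of which were found among its 60591 genes and passed the expression filter that left 19108 genes for testing. They fall into 6 groups by role. There are 13 inner kinetochore proteins (CENPA, CENPC, CENPH, CENPI, CENPK, CENPL, CENPM, CENPN, CENPO, CENPP, CENPQ, CENPU and CENPW) and 9 outer kinetochore proteins of the KMN network (NDC80, NUF2, SPC24, SPC25, DSN1, MIS12, NSL1, PMF1 and KNL1). The corona and SKA group holds 5 genes (CENPE, CENPF, SKA1, SKA2 and SKA3), and the spindle checkpoint group holds 9 (BUB1, BUB1B, BUB3, MAD2L1, TTK, ZW10, ZWILCH, KNTC1 and CDC20). The chromosomal passenger and shugoshin group holds 6 (AURKB, BIRC5, INCENP, CDCA8, SGO1 and SGO2), and 3 genes (AURKA, PLK1 and TPX2) form a group of mitotic kinases and a kinase activator.

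RNA was sequenced from PC9 and H1650, established non-small cell lung cancer lines, in 6 groups of 2 libraries each, 12 libraries in all. T0 cells had received 0.1% DMSO and were collected at 0 h, and treated cells were collected 36 h after addition of erlotinib at 10 μM or of osimertinib at 0.1 μM. Erlotinib is a reversible first-generation inhibitor of the epidermal growth factor receptor (EGFR) and osimertinib a covalent third-generation one. The labels give the genotype of every library as wild-type, and in the study's text both lines carry the same activating deletion in EGFR. The study sequenced them to ask whether the expression response to the drugs differs between lines whose death response differs. Both were grown in RPMI with fetal bovine serum. The libraries held between 17961765 and 26346187 counted reads, and a count of 3 reads, the most that a count of 0 allows, corresponds to 0.116 to 0.168 normalized CPM (reads scaled by the normalized library size). This limit covers counting error only. The lowest count of any member in any library was 24. All 7 epithelial markers checked were present, with summed levels between 6637 and 14076 normalized CPM across libraries. The 7 markers of other cell types summed to between 11.5 and 48.3 normalized CPM, mostly COL1A1, and were highest in PC9 with osimertinib (48.3 and 39.3). Of these 7, 4 passed the expression filter, and between 1 and 3 in each group were at or under 3 reads in both libraries. The leukocyte marker CD3E was at 0 reads in 11 of 12 libraries, which does not stand for the other markers. Their part in the results was not tested.

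The kinetochore is built anew on each centromere as cells approach mitosis. The histone variant CENPA marks the centromere, CENPC and the other inner kinetochore proteins bind it through the cell cycle, and the MIS12 complex connects them to KNL1 and to the NDC80 complex, which grips microtubules. Unattached kinetochores recruit TTK (MPS1), BUB1, BUBR1 (the product of BUB1B), BUB3 and MAD2 (MAD2L1), which together hold back CDC20, the activator of the anaphase-promoting complex. AURKB and its passenger partners destabilise wrong attachments, and shugoshins protect sister chromatid cohesion. Many of these mRNAs are most abundant in G2 and mitosis. Their level in a culture can therefore depend on the share of dividing cells, which was not measured here. In bulk RNA, fewer cells that make an mRNA and less of that mRNA per cell cannot be told apart. T0 cells were collected 36 h before treated cells, and a vehicle library of the later time was not analysed here, so each change against T0 includes any change with time in culture.

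Members fell together in PC9 and fell less in H1650. Summed over the 45 genes, the level in PC9 was 3839 and 3963 normalized CPM in the T0 libraries, 627 and 627 with erlotinib, and 626 and 661 with osimertinib. In H1650 the sums were 4161 and 4159 at T0, 2679 and 2813 with erlotinib, and 2545 and 2635 with osimertinib. The treated and T0 libraries of a line did not overlap, and both H1650 T0 sums lay above both PC9 T0 sums. The median level of a member went from 50.1 normalized CPM in PC9 T0 cells to 11.1 with erlotinib and 11.3 with osimertinib. In H1650 the median went from 64.0 to 40.8 and 37.5. The mitochondrial share of reads also moved with treatment, from 4.36 to 5.36% in the T0 libraries of both lines to 5.77% or more in the treated ones, and its part in the result was not tested.

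Gene by gene, edgeR's quasi-likelihood test called 45 of 45 members lower in PC9 with erlotinib, where 29.1% of all tested genes were called lower, and 44 of 45 with osimertinib, where 28.7% were. A call is a Benjamini-Hochberg adjusted p under 0.05 over all tested genes. In H1650, 39 of 45 were called lower with erlotinib against 18.5% of all tested genes, and 40 of 45 with osimertinib against 17.9%. None was called higher in any of these 4 comparisons, where 32.7%, 32.7%, 18% and 17.8% of all tested genes were. In either direction 61.8% and 61.4% of all tested genes were called in PC9, and 36.5% and 35.7% in H1650. The median log2 fold change of the members in PC9 was -2.92 with erlotinib and -2.98 with osimertinib, and in H1650 -0.63 and -0.73, beside 0.07, 0.06, 0.01 and 0 over all tested genes. Of the members, 39 fell by more than 4-fold in PC9 with erlotinib, as 5.29% of all tested genes did, and 38 with osimertinib, as 5.09% did. No member reached that size in H1650, where 0.853% of all tested genes did with erlotinib and 0.738% with osimertinib. The members called lower with both drugs in both lines numbered 38, and the share of all tested genes that did so was not counted. Both treated libraries lay below both T0 libraries for 45 members with each drug in PC9, against 36.2% and 36.4% of all tested genes, and for 44 with each drug in H1650, against 32.5% and 32.3%. The study describes the 2 libraries of a group as biological replicates, and the labels do not say whether they came from separate cultures. The p-values rest on the spread between libraries of a group, pooled over the 6 groups in 1 fit and moderated across genes. That spread may be technical.

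**Figure D1:**
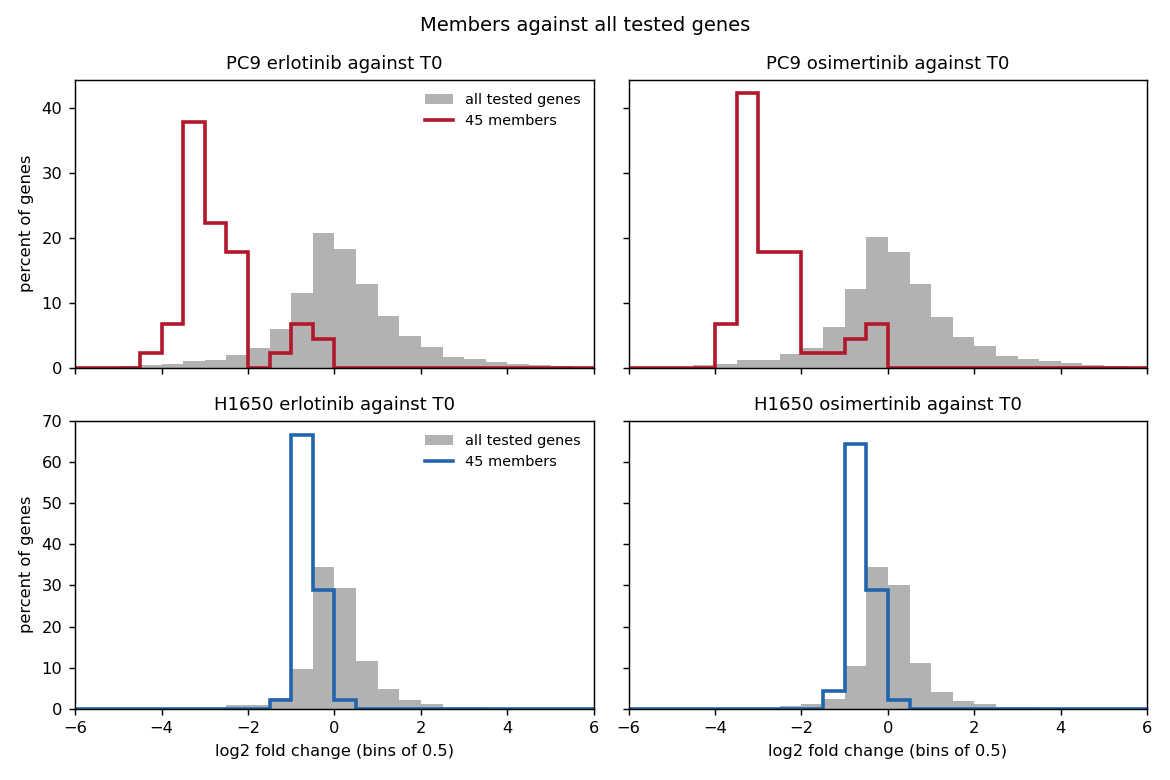
Share of genes (y axis, percent) by log2 fold change against T0 (x axis, bins of 0.5) for the 45 members (coloured line) and all 19108 tested genes (grey), one panel per line and drug. The members' median was -2.92 and -2.98 in the PC9 panels and -0.63 and -0.73 in the H1650 panels, while the grey distributions centre near 0.

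**Figure D2:**
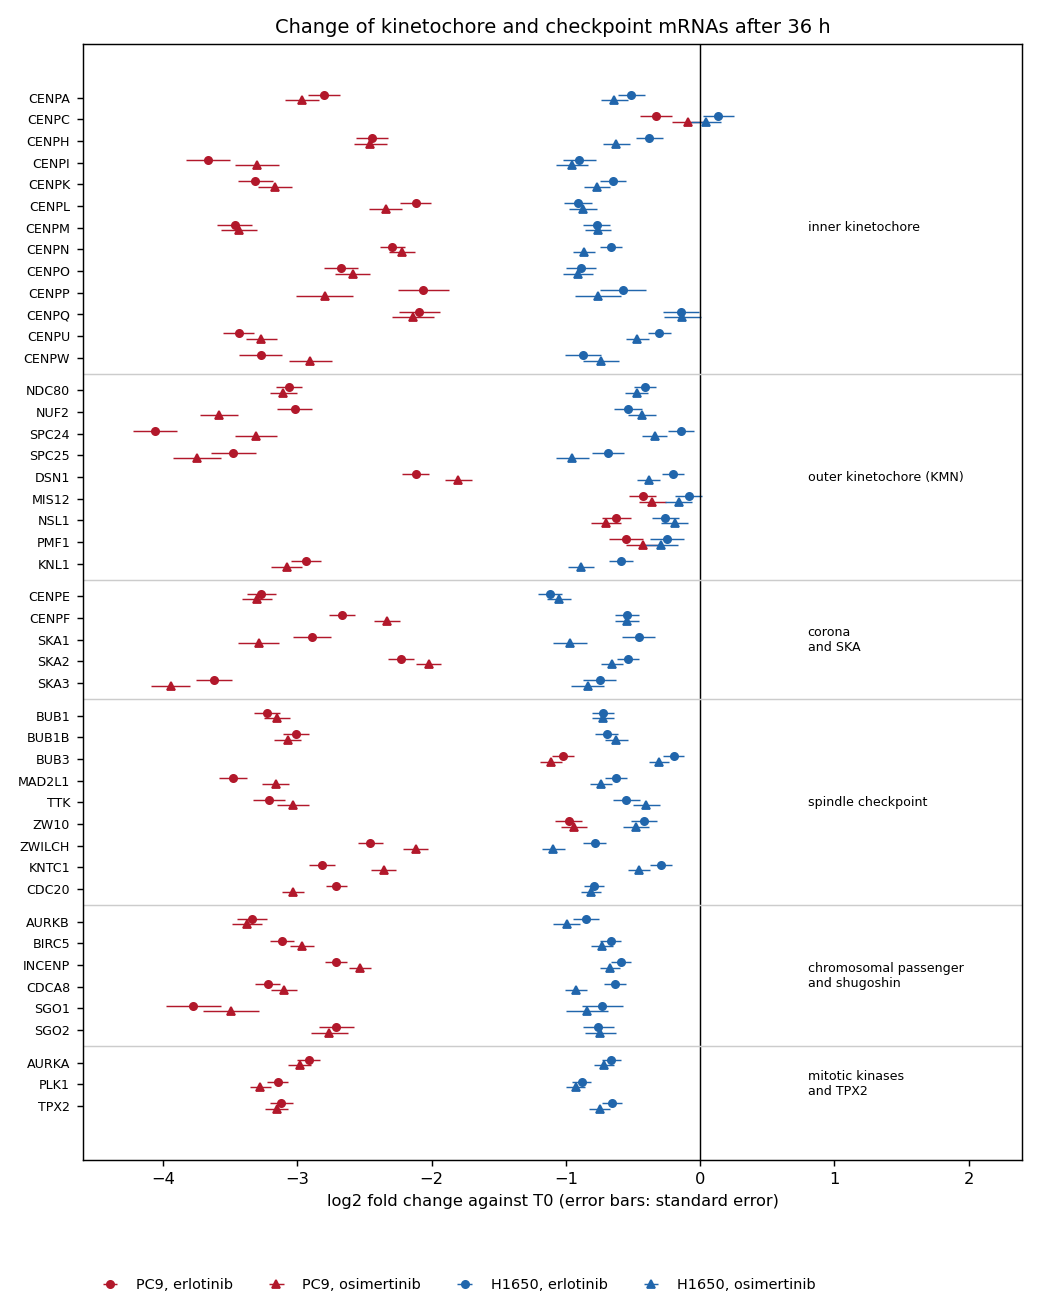
Log2 fold change against T0 (x axis) of each of the 45 members, with its standard error, in PC9 (red) and H1650 (blue) after erlotinib (circles) or osimertinib (triangles), grouped by role. Most red symbols lie between -2 and -4 and the blue ones between 0 and about -1, while CENPC, MIS12, NSL1, PMF1, BUB3 and ZW10 stand apart in PC9 with changes nearer to 0.

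The promoters of many members hold the same short run of letters, which the choice of genes did not use. RefSeq promoter windows (GRCh38.p14, 250 bases before to 50 after the start) were found for 35 of the 45. The windows were searched on both strands for TTTGAA or TTCGAA, the letters of the cell cycle genes homology region (CHR), which the MuvB core of the DREAM and B-MYB complexes is known to bind. A match stood in 20 of the 35 member windows (57.1%) and in 16.6% of all 27305 windows of the same length. CCAAT, the letters bound by NF-Y, stood in 24 of 35 (68.6%) against 35.7%, and the E2F letters TTTCCCGC, TTTCGCGC, TTTGCCGC or TTTGGCGC stood in 3 of 35 (8.6%) against 3.3%. CHR and CCAAT letters occurred together in 14 windows and shared a base in 1, that of CDCA8. In the window from 100 bases before to 50 after the start, which was chosen after the matches were seen, CHR letters stood in 19 of 35 (54.3%) against 7.4%, CCAAT in 19 of 35 (54.3%) against 22.0%, and the E2F letters in 0 of 35 against 1.7%. Of the 30 matched members that fell by more than 4-fold in PC9 with erlotinib, 18 held CHR letters, as did 2 of the other 5. For CCAAT these counts were 20 of 30 and 4 of 5, and for the E2F letters 2 of 30 and 1 of 5. A match is a run of letters and not a measured site.

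The 30 bases around the CHR letters follow for the 6 members with the largest falls in PC9 with erlotinib that hold a match, to show where the letters lie in genes of 5 different roles. Each is written 5′ to 3′ along the gene, with the CHR letters in capitals.
SGO1: gaggcggaaaatTTCGAAtgtggcggcggt
SKA3: ccggcgccgagaTTCAAActagtggcggga
MAD2L1: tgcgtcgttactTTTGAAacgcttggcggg
SPC25: aagtgcactaggTTTGAAatcggaaagttg
CENPW: gttggcggcggaTTCGAAcgttcggactga
BUB1: ctgcgcggggtaTTCGAAtcggcggcggct
These lie at chr3:20186192-20186221 (minus strand), chr13:21176538-21176567 (minus strand), chr4:120066807-120066836 (minus strand), chr2:168890416-168890445 (minus strand), chr6:126340120-126340149 (plus strand) and chr2:110678045-110678074 (minus strand). The letters begin 3 bases before the RefSeq start in SGO1, SKA3 and SPC25, at base 2 in BUB1, at base 18 in CENPW and at base 25 in MAD2L1. SGO1, CENPW and BUB1 carry TTCGAA, which reads the same on both strands, and SKA3 carries the reverse complement of TTTGAA.

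Below are 5 further members, chosen after their values were seen because each is a defining gene of its role and holds the letters within 100 bases before the start.
PLK1: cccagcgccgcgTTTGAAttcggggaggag
CDC20: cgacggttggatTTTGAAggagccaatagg
CDCA8: gtgactgtggagTTTGAAttgggtggcggt
CENPA: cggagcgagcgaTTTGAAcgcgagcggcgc
BUB1B: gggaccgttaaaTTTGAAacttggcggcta
They lie at chr16:23678848-23678877 (plus strand), chr1:43358904-43358933 (plus strand), chr1:37692481-37692510 (plus strand), chr2:26786026-26786055 (plus strand) and chr15:40161034-40161063 (plus strand). Here TTTGAA begins 29 bases before the start in PLK1, 65 in CDC20, 23 in CDCA8 and BUB1B and 18 in CENPA. SPC25 and CDC20 hold a further match upstream, 247 and 178 bases before the start. The 2 members with the smallest falls in PC9 that hold a match carry their only one 224 bases before the start in ZW10 and 90 in CENPC.
ZW10: gaagcaacgaacTTTGAAaacaactaagga
CENPC: tgtgtctccgggTTCAAAcccaggcacagg
They lie at chr11:113773899-113773928 (minus strand) and chr4:67545576-67545605 (minus strand). The windows of MIS12, NSL1 and PMF1, the other matched members with falls of less than 4-fold in PC9 with erlotinib, held no CHR letters, which says nothing about the proteins that bind there. BUB3 had no entry, nor did TTK, KNTC1, BIRC5, AURKA, TPX2, CENPH, CENPL, CENPM and KNL1.

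At the inner kinetochore, 12 of 13 mRNAs fell by more than 4-fold in PC9 with each drug, and CENPC did not. CENPN, which recognises the CENPA nucleosome and had the highest mean level of this group, was at 58.3 and 62.2 normalized CPM in the PC9 T0 libraries, 11.7 and 12.8 with erlotinib and 12.8 and 13.1 with osimertinib. Its levels in H1650 were 91.9 and 96.7, then 57.8 and 61.1, then 51.2 and 52.4. Every treated library lay below both T0 libraries of its line. Its log2 fold changes were -2.29 ± 0.09 (SE; adjusted p = 4e-18) and -2.22 ± 0.09 in PC9, and -0.67 ± 0.08 and -0.86 ± 0.08 in H1650.

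CENPI, a scaffold subunit of the constitutive centromere network, fell the most of this group in PC9 with erlotinib, by 12.7-fold (log2 -3.67 ± 0.16, adjusted p = 2.7e-17). It was at 32.4 and 33.3 normalized CPM at T0, 3.40 and 1.83 with erlotinib and 3.05 and 3.64 with osimertinib. In H1650 it went from 42.5 and 46.5 to 23.3 and 24.4 with erlotinib and 22.1 and 23.9 with osimertinib. CENPM, CENPU, CENPK and CENPW also fell by more than 8-fold in PC9 with erlotinib, with log2 fold changes of -3.47 ± 0.13, -3.44 ± 0.12, -3.31 ± 0.13 and -3.27 ± 0.16. CENPA itself, the histone that defines the centromere, went from 43.3 and 40.6 normalized CPM to 6.76 and 5.31 with erlotinib and 4.99 and 5.77 with osimertinib in PC9 and from 50.3 and 46.4 to 34.7 and 33.0 with erlotinib and 30 and 31.9 with osimertinib in H1650. CENPP encodes a subunit of the constitutive centromere network. In PC9 it was at 12.3 and 11.5 normalized CPM at T0, 2.87 and 2.81 with erlotinib and 1.53 and 1.91 with osimertinib, and in H1650 at 11 and 9.26, 6.91 and 6.66 with erlotinib and 5.25 and 6.64 with osimertinib. Treated libraries lay below T0 libraries in both lines. The smallest of the large falls in this group were those of CENPP (-2.06 ± 0.19), CENPQ (-2.09 ± 0.15) and CENPL (-2.12 ± 0.12).

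CENPC, which links the centromere to the MIS12 complex, had the smallest change of all 45 in PC9 with each drug. Its PC9 libraries were at 15.4 and 15.5 normalized CPM at T0, 13 and 11.6 with erlotinib and 15.3 and 13.8 with osimertinib. In H1650 they were at 19.4 and 19.9, 21.4 and 21.8 with erlotinib and 21.4 and 19.1 with osimertinib, so the erlotinib libraries lay above those at T0 and the osimertinib libraries overlapped them. Its change with erlotinib in PC9 was -0.33 ± 0.12 (adjusted p = 0.02), a call that was lost with upper quartile normalization (adjusted p = 0.086) and without either PC9 T0 library or PC9 erlotinib replicate 2. With osimertinib it was -0.09 ± 0.12 (adjusted p = 0.55, 95% interval -0.34 to 0.16). In H1650 the differences were 0.14 ± 0.11 (adjusted p = 0.38, interval -0.10 to 0.37) and 0.04 ± 0.11 (adjusted p = 0.82, interval -0.19 to 0.28). CENPQ was the other inner member not called in H1650, at -0.14 ± 0.14 with erlotinib (adjusted p = 0.45) and -0.13 ± 0.14 with osimertinib (adjusted p = 0.49).

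The outer kinetochore mRNAs fell unequally in PC9. The 4 subunits of the NDC80 complex, which binds microtubules directly, each fell by more than 8-fold in PC9 with both drugs. NDC80 was at 97.9 and 98.1 normalized CPM in the PC9 T0 libraries, 12 and 11.5 with erlotinib and 11.9 and 10.8 with osimertinib, and at 89.0 and 101.5, 68.9 and 74.5 with erlotinib and 66.7 and 70.4 with osimertinib in H1650. SPC24 showed the largest fall of any member in PC9 with erlotinib, 16.7-fold (log2 -4.06 ± 0.16, adjusted p = 3.2e-18). It was at 17.3 and 18.5 normalized CPM at T0, 1.07 and 1.05 with erlotinib and 1.62 and 2.02 with osimertinib. In H1650 it was more abundant at T0, at 42.4 and 44.7, and stood at 39.7 and 39.1 with erlotinib and 35.3 and 33.5 with osimertinib. Its H1650 change was not called with erlotinib (-0.14 ± 0.10, adjusted p = 0.26, interval -0.34 to 0.05) and was with osimertinib (-0.34 ± 0.10, adjusted p = 0.0063), a call that was lost without H1650 T0 replicate 2 or osimertinib replicate 2. NUF2 is the coiled-coil partner of NDC80. In PC9 it was at 35.1 and 41.4 normalized CPM at T0, 4.48 and 4.92 with erlotinib and 3.42 and 2.92 with osimertinib, and in H1650 at 44.4 and 43.3, 29.8 and 30.6 with erlotinib and 30 and 34.9 with osimertinib. NUF2 and SPC25 changed in PC9 by -3.02 ± 0.13 and -3.48 ± 0.17 with erlotinib and by -3.58 ± 0.14 and -3.75 ± 0.18 with osimertinib. KNL1, the scaffold on which BUB1 and BUB3 gather, changed by -2.94 ± 0.11 and -3.08 ± 0.12 in PC9 and by -0.59 ± 0.09 and -0.89 ± 0.09 in H1650. The PC9 levels of KNL1 were 62.6 and 69.0 normalized CPM at T0, 8.69 and 8.51 with erlotinib and 7.95 and 7.57 with osimertinib, and those in H1650 89.0 and 84.1, 50.8 and 64.0 with erlotinib and 47.7 and 45.8 with osimertinib.

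In the MIS12 complex, the bridge to the inner kinetochore, DSN1 fell by more than 3-fold in PC9 and the other 3 subunits by less than 2-fold. DSN1 went from 51.0 and 49.2 normalized CPM in PC9 T0 libraries to 10.5 and 12.5 with erlotinib and 13.5 and 15.2 with osimertinib. In H1650 it stood at 104.6 and 110.2 in T0 libraries, 96.3 and 90.5 with erlotinib and 78.2 and 86.3 with osimertinib. Its change with erlotinib was -2.12 ± 0.10 in PC9 (adjusted p = 1.3e-16) and -0.20 ± 0.08 in H1650 (adjusted p = 0.059). The H1650 change was called with RLE normalization (adjusted p = 0.037) and with a separate fit for each line (adjusted p = 0.045). A block for replicate number called it too (adjusted p = 0.0086). MIS12 was at 33.9 and 34.8 in PC9 T0 libraries, 24.2 and 26.8 with erlotinib and 27.0 and 26.6 with osimertinib, and at 23.9 and 23.9, 22.5 and 22.5 with erlotinib and 20.2 and 22.6 with osimertinib in H1650. It was called lower in PC9 with both drugs (-0.43 ± 0.10, adjusted p = 0.00041, and -0.36 ± 0.10, adjusted p = 0.0027) and with neither in H1650. NSL1 and PMF1 changed by -0.62 ± 0.11 and -0.55 ± 0.13 in PC9 with erlotinib and by -0.70 ± 0.11 and -0.42 ± 0.13 with osimertinib, all called. In H1650 NSL1 was called with erlotinib only (-0.26 ± 0.10, adjusted p = 0.048, against -0.19 ± 0.10, adjusted p = 0.15, with osimertinib) and PMF1 with neither (-0.25 ± 0.13 and -0.29 ± 0.13).

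Among the corona and SKA genes, all 5 fell by more than 4-fold in PC9 with each drug and were called lower in H1650. CENPF, a large coiled-coil protein of the corona and the most abundant of the group by count, was at 258.4 and 293.0 normalized CPM in PC9 T0 libraries, 39.7 and 46.8 with erlotinib and 51.4 and 58.3 with osimertinib. In H1650 it was at 300 and 280.7 at T0, 181.5 and 216.9 with erlotinib and 195.3 and 201.8 with osimertinib. In PC9 it changed by -2.67 ± 0.10 with erlotinib and -2.33 ± 0.10 with osimertinib, and in H1650 by -0.54 ± 0.09 and -0.55 ± 0.09. CENPE, a kinesin that carries chromosomes to the spindle equator, had the largest H1650 change of any member with erlotinib (-1.12 ± 0.09, adjusted p = 7.1e-11). In PC9 it changed by -3.27 ± 0.11 and -3.30 ± 0.11.

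The SKA complex helps the NDC80 complex hold on to shortening microtubules. Its subunit SKA3 fell by 12.3-fold in PC9 with erlotinib and by 15.4-fold with osimertinib, the largest osimertinib fall of any member. It was at 46.7 and 47.8 normalized CPM in PC9 T0 libraries, 3.85 and 3.83 with erlotinib and 3.05 and 3.08 with osimertinib. H1650 began lower, at 21.4 and 19.4, and stood at 11.9 and 12.3 with erlotinib and 12.6 and 10.2 with osimertinib. Treated and T0 libraries did not overlap in either line, and the T0 libraries of PC9 lay above those of H1650. SKA2 fell the least of the group, from 56.4 and 56.5 to 11.2 and 12.8 with erlotinib and 13.5 and 14.3 with osimertinib in PC9 (-2.23 ± 0.09 and -2.02 ± 0.10) and from 81.7 and 78.0 to 53.5 and 56.6 with erlotinib and 50.1 and 51.0 with osimertinib in H1650 (-0.54 ± 0.08 and -0.66 ± 0.08). SKA1 carries the microtubule-binding domain of the complex. In PC9 it was at 29.5 and 29.6 normalized CPM at T0, 4.08 and 3.86 with erlotinib and 3.10 and 2.92 with osimertinib, and in H1650 at 24.2 and 23.5, 17.3 and 17.4 with erlotinib and 13.7 and 10.7 with osimertinib.

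All 9 spindle checkpoint genes were called lower in each of the 4 treated groups, and 7 of them fell by more than 4-fold in PC9 with each drug. MAD2L1, which encodes the MAD2 protein that captures CDC20, fell the most with erlotinib, by 11.2-fold (log2 -3.48 ± 0.10, adjusted p = 3.1e-21). It went from 76.2 and 83.1 normalized CPM in PC9 T0 libraries to 6.63 and 7.57 with erlotinib and 9.11 and 8.63 with osimertinib. In H1650 it went from 82.3 and 84.7 to 52.1 and 56.1 with erlotinib and 51.2 and 48.9 with osimertinib. The PC9 T0 and H1650 T0 libraries were close in level, and the treated libraries of the 2 lines were far apart. The kinases TTK and BUB1 and the BUBR1 gene BUB1B changed by -3.21 ± 0.12, -3.23 ± 0.09 and -3.01 ± 0.10 in PC9 with erlotinib, and by -0.55 ± 0.10, -0.73 ± 0.08 and -0.70 ± 0.09 in H1650. CDC20, the target of the checkpoint, went from 293.8 and 292.8 to 46.8 and 42.9 with erlotinib and 36.1 and 35.6 with osimertinib in PC9 and from 195.0 and 188.9 to 105.6 and 116.1 with erlotinib and 114.0 and 104.8 with osimertinib in H1650.

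BUB3 and ZW10 were the checkpoint genes with the smaller changes in PC9. BUB3, a WD-repeat protein that carries BUB1 and BUBR1 to the kinetochore, was at 127.9 and 131.0 normalized CPM in PC9 T0 libraries, 59.7 and 67.7 with erlotinib and 57.5 and 62.5 with osimertinib. In H1650 it was at 215.4 and 218.7, 189.2 and 189.3 with erlotinib and 165.8 and 184.7 with osimertinib. Its H1650 change with erlotinib was -0.20 ± 0.08 (adjusted p = 0.041), and that call was lost in 6 of the 12 fits that each left out 1 library, namely any of the PC9 T0, H1650 T0 or H1650 erlotinib libraries. With osimertinib it was -0.31 ± 0.08 (adjusted p = 0.0019), which was lost without H1650 osimertinib replicate 1. ZW10 belongs with ZWILCH and KNTC1 to the RZZ complex, which brings dynein and the checkpoint proteins MAD1 and MAD2 to kinetochores, and also acts in membrane traffic between divisions. It went from 41.2 and 45.2 to 21.2 and 22.5 with erlotinib and 22.7 and 22.3 with osimertinib in PC9 (-0.98 ± 0.10 and -0.94 ± 0.10) and from 42.3 and 48.8 to 33.5 and 34.7 with erlotinib and 31.9 and 33.5 with osimertinib in H1650 (-0.42 ± 0.09 and -0.48 ± 0.09). Its partners changed more in PC9, ZWILCH by -2.46 ± 0.10 and KNTC1 by -2.82 ± 0.10 with erlotinib. KNTC1 (ROD) is the large subunit of the complex. In PC9 it was at 77.6 and 78.3 normalized CPM at T0, 11.6 and 10.6 with erlotinib and 15.8 and 14.5 with osimertinib, and in H1650 at 83.1 and 91.6, 75.0 and 67.6 with erlotinib and 62.6 and 64.7 with osimertinib. ZWILCH lay between its partners in the size of its fall with erlotinib in PC9. The PC9 levels of ZWILCH were 64.8 and 69.8 normalized CPM at T0, 13.2 and 11.4 with erlotinib and 15.4 and 15.6 with osimertinib, and those in H1650 84.3 and 84.1, 49.7 and 47.9 with erlotinib and 39.1 and 39.8 with osimertinib. The H1650 erlotinib call of KNTC1 (-0.29 ± 0.08, adjusted p = 0.0057) was lost without H1650 T0 replicate 2 or erlotinib replicate 2.

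All 6 chromosomal passenger and shugoshin genes fell by more than 4-fold in PC9 with each drug, and all were called lower in H1650. BIRC5, whose product survivin places the complex on centromeres, was at 178.3 and 182.1 normalized CPM in PC9 T0 libraries, 20.9 and 20.7 with erlotinib and 20.8 and 25.5 with osimertinib. In H1650 it went from 168.8 and 169.8 to 102.9 and 110.2 with erlotinib and 98.0 and 106.0 with osimertinib. AURKB, the kinase of the complex, changed by -3.34 ± 0.11 and -3.38 ± 0.11 in PC9 and by -0.85 ± 0.10 in H1650 with erlotinib. SGO1, the guardian of centromeric cohesion in mitosis, fell by 13.7-fold with erlotinib in PC9 (log2 -3.77 ± 0.21, adjusted p = 3.3e-15). Its libraries were at 20.7 and 21.1, then 1.43 and 1.60, then 1.71 and 2.02 in PC9, and at 22.7 and 22.5, 11.7 and 15.5 with erlotinib and 9.93 and 15.2 with osimertinib in H1650. The treated H1650 libraries of SGO1 differed from each other more than those at T0 and still lay below them. CDCA8 encodes borealin, a passenger subunit. The PC9 levels of CDCA8 were 112.6 and 118.4 normalized CPM at T0, 12.4 and 12.3 with erlotinib and 14.8 and 12.1 with osimertinib, and those in H1650 99.7 and 102.3, 63.9 and 66.2 with erlotinib and 52.0 and 54.3 with osimertinib. SGO2 went from 56.5 and 58.4 to 10.5 and 7.18 with erlotinib and 7.21 and 9.87 with osimertinib in PC9 and from 62.2 and 60.8 to 34.6 and 38.0 with erlotinib and 35.1 and 38.3 with osimertinib in H1650.

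The mitotic kinases and TPX2 fell by similar amounts within each line. TPX2, which activates AURKA on spindle microtubules, was at 435.7 and 465.9 normalized CPM in PC9 T0 libraries, 53.1 and 50.6 with erlotinib and 45.9 and 55.5 with osimertinib. In H1650 it was at 521.9 and 524.2, 319.8 and 342.8 with erlotinib and 307.3 and 315.1 with osimertinib. PLK1, a kinase that acts from mitotic entry to cytokinesis, went from 327.7 and 308.5 to 36.9 and 34.9 with erlotinib and 31.9 and 33.8 with osimertinib in PC9 and from 316.3 and 295.3 to 167.1 and 164.4 with erlotinib and 164.6 and 156.9 with osimertinib in H1650. In these genes every treated library lay below every T0 library of its line, and treated H1650 libraries lay far above treated PC9 libraries. AURKA went from 140.8 and 151.3 to 19.0 and 19.6 with erlotinib and 17.9 and 19.1 with osimertinib in PC9 and from 239.6 and 243.5 to 147.6 and 157.5 with erlotinib and 145.2 and 148.7 with osimertinib in H1650. The 3 log2 fold changes in PC9 with erlotinib lay between -3.15 and -2.92, and those in H1650 between -0.88 and -0.66.

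**Figure D3:**
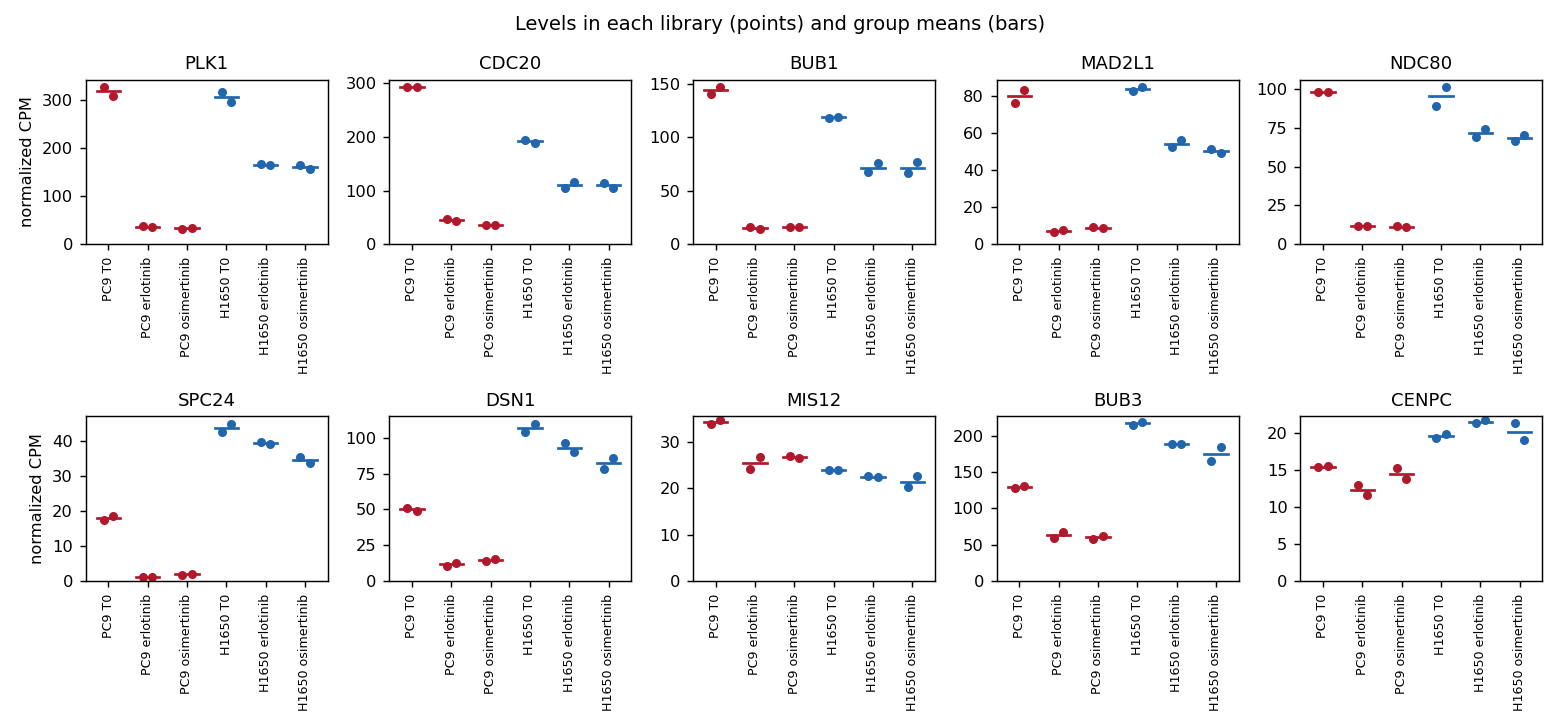
Normalized CPM (y axis, linear, starting at 0) of 10 members in each of the 12 libraries, by group (x axis), with a point per library and a bar at the group mean. PLK1, CDC20, BUB1, MAD2L1, NDC80, SPC24 and DSN1 drop steeply in PC9 (red) and less in H1650 (blue), while the bars of MIS12 and CENPC lie closer together.

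Because subunits of 1 complex fell unequally in PC9, its mRNA makeup per kilobase of transcript shifted there. Within the MIS12 complex, DSN1 made up 47.8% ± 0.306 (SD, n = 2) of the summed normalized CPM per kilobase in PC9 T0 cells, 22.7% ± 1.94 with erlotinib and 25.9% ± 1.61 with osimertinib. MIS12 itself went from 28.4% ± 1.05 to 43.7% ± 1.46 and 41.8% ± 1.31. In H1650 the share of DSN1 was 71.5% ± 0.403 at T0, 71.0% ± 0.0738 with erlotinib and 68.9% ± 0.939 with osimertinib. Among BUB1, BUB1B and BUB3, the share of BUB3 was 26.4% ± 0.696 in PC9 T0 cells, 60.4% ± 3.72 with erlotinib and 59.0% ± 1.27 with osimertinib, and 40.6% ± 0.744, 49.4% ± 1.91 and 46.8% ± 0.299 in H1650. In the RZZ complex ZW10 went from 41.6% ± 0.659 to 68.1% ± 2.97 and 63.0% ± 0.0528 in PC9. In H1650 it also rose, from 38.3% ± 1.91 to 41.7% ± 1.66 and 44.9% ± 0.471. In the SKA complex SKA2 went from 40.2% ± 0.236 to 58.3% ± 2.71 and 67.6% ± 1.28 in PC9. In H1650 SKA2 was already at 62.2% ± 0.214 at T0 and stood at 62.9% ± 0.616 and 66.2% ± 3.87. In the chromosomal passenger complex in PC9, INCENP went from 20.6% ± 0.0892 to 27.0% ± 0.139 and 28.4% ± 1.23, AURKB from 29.4% ± 1.65 to 25.1% ± 2.25 and 22.8% ± 2.90, and BIRC5 stood at 24.8% ± 0.615, 24.7% ± 1.04 and 25.4% ± 2.61. These shares are descriptions of 2 libraries a group and were not tested.

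**Figure D4:**
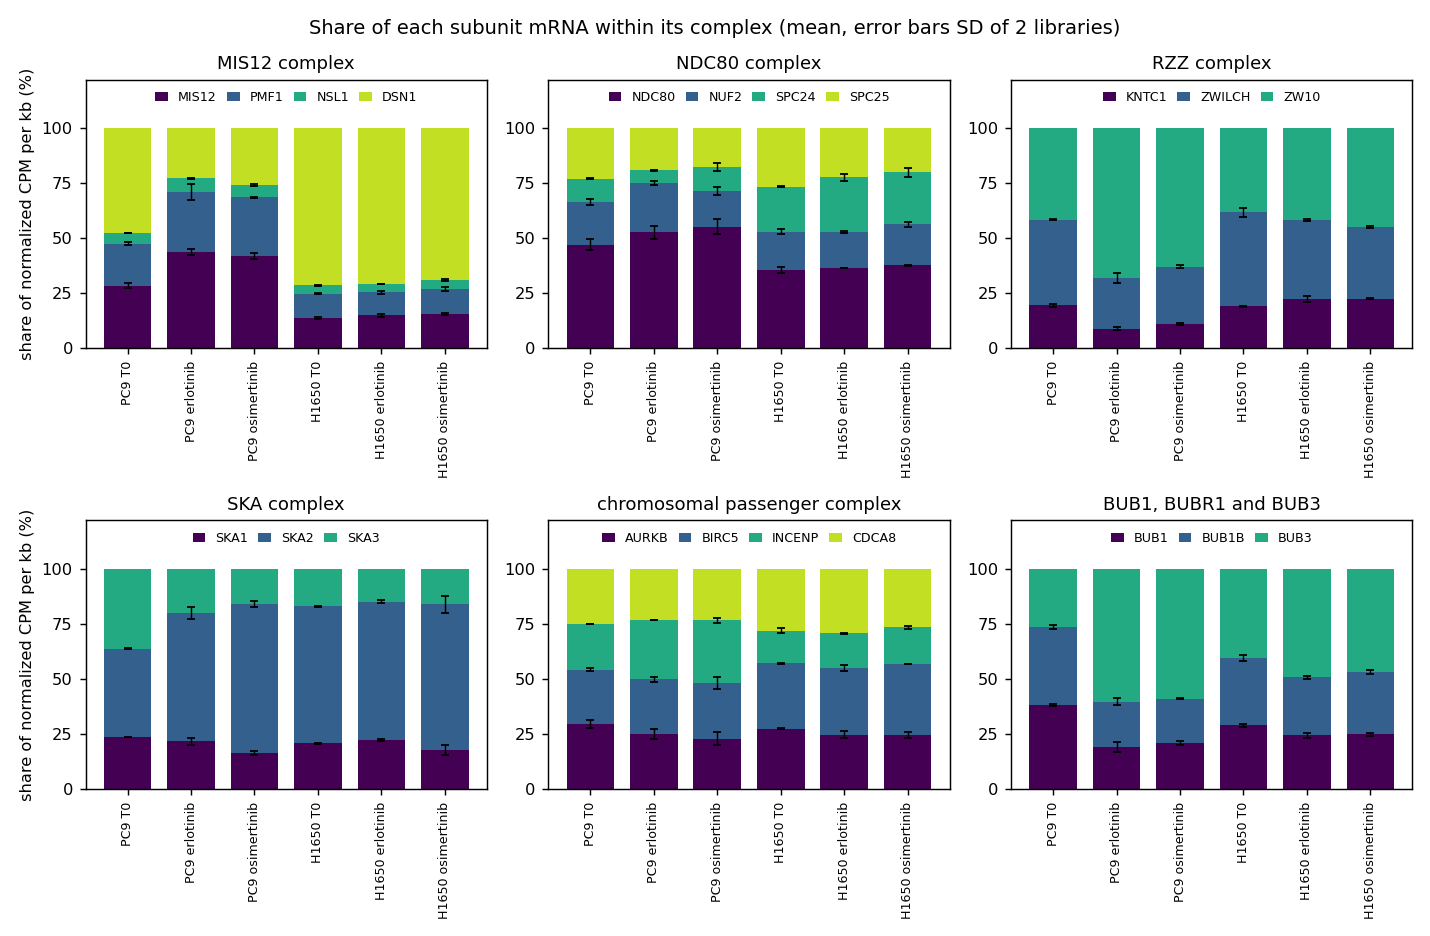
Share of each subunit (y axis, percent of the complex's summed normalized CPM per kilobase, mean of 2 libraries) in 6 complexes, by group (x axis). DSN1 shrinks from 47.8% to 22.7% and BUB3 grows from 26.4% to 60.4% between PC9 T0 and PC9 with erlotinib, while BUB3 goes from 40.6% to 49.4% and DSN1 from 71.5% to 71.0% in H1650.

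The order of the members by level per kilobase changed accordingly. In PC9 T0 cells CDC20 was first at 145.8 ± 0.336 normalized CPM per kilobase (SD, n = 2), before TPX2 at 125.1 ± 5.92 and PLK1 at 66.8 ± 2.84, and CENPP was last at 1.27 ± 0.0644. With erlotinib CDC20 at 22.3 ± 1.35 and TPX2 at 14.4 ± 0.495 still led. They were followed by MIS12 at 8.07 ± 0.581, BUB3 at 7.79 ± 0.695, PLK1 at 7.54 ± 0.291 and ZW10 at 7.50 ± 0.314, 4 neighbours that did not differ beyond their spread. MIS12 had been at place 29 of 45 at T0, BUB3 at 21 and ZW10 at 23. In H1650 MIS12 moved from place 38 to 29 with erlotinib, BUB3 from 12 to 8 and ZW10 from 24 to 23.

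The lines were compared directly by subtracting the PC9 change from the H1650 change of each gene. For erlotinib 43 of 45 members were called with a change less negative in H1650, where 21.1% of all tested genes were called in that direction, and for osimertinib 42 were, against 21.5%. None was called in the other direction, where 19.8% and 20.5% of all tested genes were. The median difference was 2.29 for erlotinib and 2.22 for osimertinib on the log2 scale, beside -0.03 for both drugs over all tested genes. The largest erlotinib difference was that of SPC24, 3.92 ± 0.20 (adjusted p = 1.7e-15), and the largest osimertinib difference that of NUF2, 3.15 ± 0.18 (adjusted p = 2.6e-14). MIS12 and PMF1 were not called for either drug, with differences of 0.34 ± 0.14 and 0.30 ± 0.18 for erlotinib. With a block for replicate number, the erlotinib difference of MIS12 was called (0.35, adjusted p = 0.036). CENPC was called for erlotinib only (0.47 ± 0.17, adjusted p = 0.025, against 0.13 ± 0.17, adjusted p = 0.57). The CENPC call was lost with DESeq2 (adjusted p = 0.074), with upper quartile normalization (adjusted p = 0.065) and in 5 of 12 fits that each left out 1 library. Across the 45 members, the changes in PC9 and H1650, which share no library, had a Pearson r of 0.59 and a Spearman rho of 0.47 for erlotinib and 0.66 and 0.52 for osimertinib, as a description over genes that are not independent.

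Between the drugs, 7 of 45 members were called in PC9 and 4 of 45 in H1650, shares close to the 16.6% and 8.75% of all tested genes called there. The doses differed, at 10 μM for erlotinib and 0.1 μM for osimertinib. In PC9, 3 members were lower with osimertinib than with erlotinib, where 6.41% of all tested genes were, and 4 were higher, where 10.1% were. The lower ones were CDC20 (-0.32 ± 0.08, adjusted p = 0.0068), CENPP (-0.74 ± 0.24) and NUF2 (-0.56 ± 0.18), and the higher ones KNTC1 (0.46 ± 0.11, adjusted p = 0.0034), SPC24 (0.76 ± 0.25), CENPF (0.34 ± 0.10) and ZWILCH (0.34 ± 0.11). KNTC1 had the smallest adjusted p of the 7. In each of the 7 the erlotinib and osimertinib libraries did not overlap, which the calls on the same libraries made likely. With each library left out in turn, these 7 differences kept their signs. They ran from -0.89 to -0.57 for CENPP, -0.69 to -0.46 for NUF2 and -0.38 to -0.26 for CDC20. The ranges were 0.60 to 0.92 for SPC24, 0.22 to 0.46 for CENPF, 0.23 to 0.45 for ZWILCH and 0.39 to 0.52 for KNTC1. Without 1 of the PC9 drug libraries, only part of the 7 stayed called, and members outside the 7 were called in some fits. In H1650, 4 members were lower with osimertinib, where 3.73% of all tested genes were. They were SKA1 (-0.51 ± 0.13, adjusted p = 0.0096), ZWILCH (-0.31 ± 0.09), KNL1 (-0.30 ± 0.10) and CDCA8 (-0.29 ± 0.08), and none was higher, where 5.02% were. KNL1 was near the threshold (adjusted p = 0.049). Its call was lost with DESeq2, with RLE or upper quartile normalization, without a filter and with a separate fit for each line. Its difference ran from -0.46 to -0.11 when 1 library was left out. In all 4 genes both osimertinib libraries lay below both erlotinib libraries, which the calls on the same libraries made likely. The share of all tested genes without overlap between the drugs was not counted in either line. The H1650 calls fell to 0 without H1650 erlotinib replicate 2 or osimertinib replicate 2, to 1 without osimertinib replicate 1 and to 2 without erlotinib replicate 1. For the members as a whole, the 95% interval of the drug difference lay within 2-fold for 43 of 45 in PC9 and for 45 in H1650. ZWILCH was called in opposite directions in the 2 lines, a difference that was not tested.

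**Figure D5:**
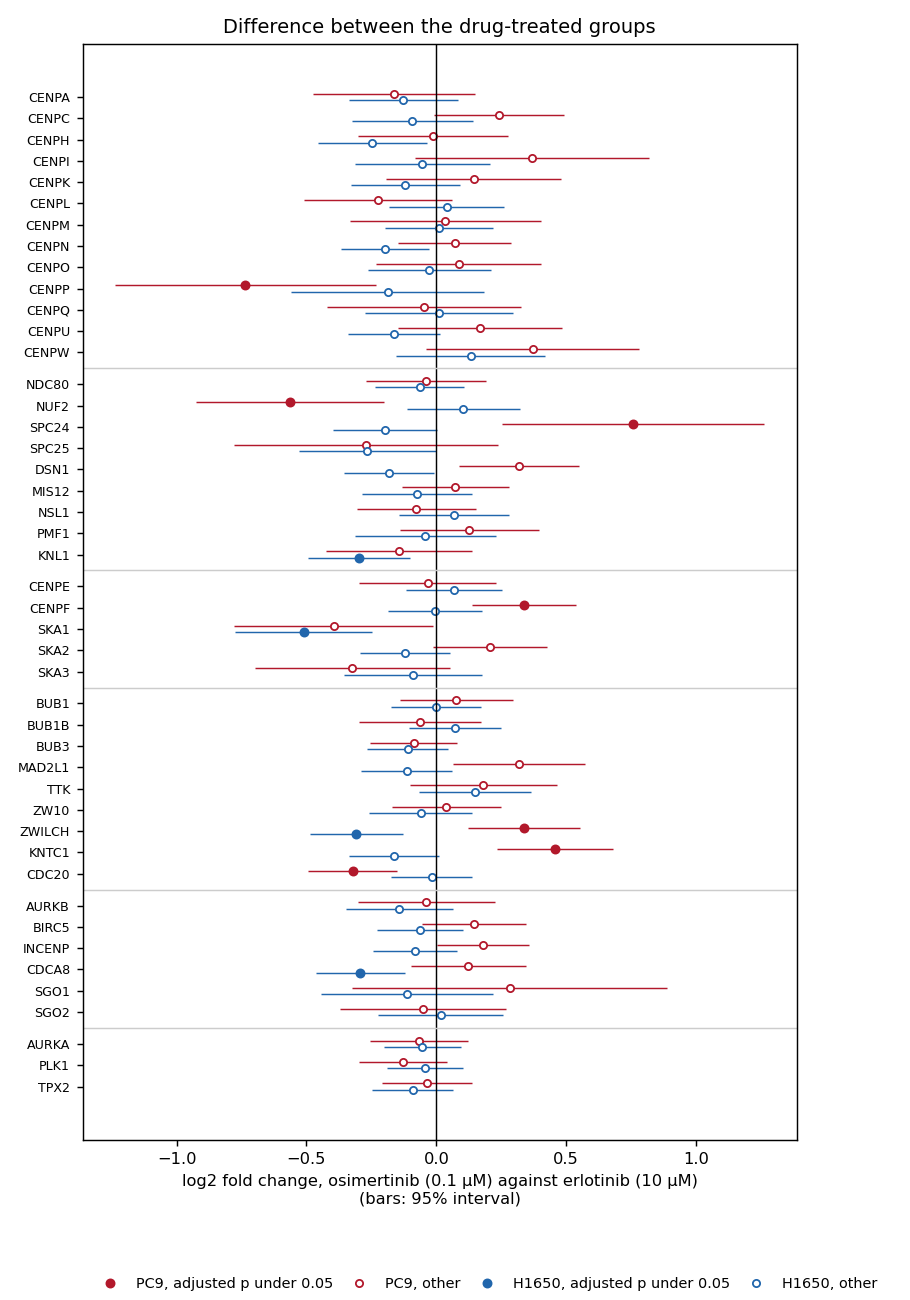
Osimertinib minus erlotinib log2 fold change (x axis) with its 95% interval for each of the 45 members in PC9 and H1650, called members being filled. The points lie between -0.74 and 0.76 in PC9 and between -0.51 and 0.15 in H1650.

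At T0 the lines differed in either direction. Of the members, 19 were higher in H1650, where 35.8% of all tested genes were, and 12 were lower, where 33.8% were. In either direction 31 of 45 were called, a share close to the 69.6% of all tested genes. The median difference of the members was 0.16. SPC24 was 1.28 ± 0.10 higher on the log2 scale in H1650 (adjusted p = 8.2e-12) and DSN1 1.10 ± 0.09 higher, while SKA3 differed by -1.21 ± 0.11 and INCENP, the scaffold of the passenger complex, by -0.84 ± 0.07. AURKA was higher in H1650 (0.73 ± 0.07) and TTK lower (-0.79 ± 0.10).

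Neighbouring gene lists were followed beside the members. Of 19 other kinetochore and checkpoint genes, 13 and 14 were called lower in PC9 with erlotinib and osimertinib and 11 with each drug in H1650, where 29.1%, 28.7%, 18.5% and 17.9% of all tested genes were, with medians of -1.51, -1.34, -0.37 and -0.34. HJURP, the chaperone that loads CENPA, changed by -3.77 ± 0.09 in PC9 with erlotinib and -0.71 ± 0.08 in H1650. TRIP13, an ATPase that opens MAD2, changed by -3.92 ± 0.09 and -0.87 ± 0.08. The genes of this list called higher were CENPT with osimertinib in PC9 (0.44 ± 0.10) and BOD1 with erlotinib in H1650 (0.21 ± 0.08). Of 12 anaphase regulators and substrates, 12 were lower with each drug in PC9 and 11 in H1650, beside those same shares of all tested genes, with medians of -2.97, -2.92, -0.60 and -0.60. Among them cyclin B1 (CCNB1) changed by -2.83 ± 0.08 and -0.58 ± 0.07 with erlotinib, and separase (ESPL1) by -3.53 ± 0.10 and -0.52 ± 0.08. FZR1, the activator that takes over from CDC20, was not called in H1650 (-0.10 ± 0.11 and -0.07 ± 0.11). The 14 subunits of the anaphase-promoting complex itself moved less. In PC9 7 were lower and 3 higher with erlotinib and 8 lower and 2 higher with osimertinib, with medians of -0.39 and -0.40, and in H1650 4 were lower with each drug and 1 higher, ANAPC16 with erlotinib. All tested genes were called lower in 29.1% and 28.7% of cases in PC9 and in 18.5% and 17.9% in H1650, and higher in 32.7% with each drug in PC9 and in 18% and 17.8% in H1650. ANAPC16 was higher with erlotinib in PC9 (1.01 ± 0.08) and ANAPC7 lower (-1.02 ± 0.09).

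Several members share exon bases with other genes, and whether counting used strand is not given in the sources used here. In GENCODE 29, 38.0% of the exon bases of CENPP overlap IPPK on the opposite strand, and 27.0% of those of CENPO overlap ADCY3. MIS12 shares 9.5% with DERL2, CENPN 12.8% with CMC2 and SGO1 17.7% with SGO1-AS1. ZWILCH shares 3.3% with RPL4, which reached 33884 reads in a library. Reads of such genes and of their partners cannot be told apart if strand was not used.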

How the data were processed

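Poly(A) RNA of 12 libraries (2 lines, 6 groups, 2 libraries a group) was analysed from the table of read counts per gene that the authors deposited after running the DolphinNext pipeline, not normalized. The submitters' processing notes name GRCh38 and DESeq2. The aligner, annotation and use of strand are not given in the sources used here. Members and gene lists were chosen with earlier results of these data known. Of 60591 genes, 19108 passed edgeR's filterByExpr by group. Counts were scaled by TMM, and 1 mean per group was fitted over all 12 libraries with edgeR 4.0.16 (R 4.3.3), whose quasi-likelihood test with Benjamini-Hochberg adjustment over all tested genes gives every adjusted p printed except where DESeq2 is named, with 0.05 as threshold. SE is the absolute log2 fold change divided by the root of F, and intervals are 95%. The scripts were tested on simulated data. Libraries held 17961765 to 26346187 reads.

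Members named by rule were those with the highest mean level, the largest or the smallest change in each role, and those called between drugs. NDC80 and CENPA, and the plotted BUB1, were chosen after their values were seen. Levels between genes are normalized CPM per kilobase of the deposited gene length. Promoter windows are RefSeq's (GRCh38.p14), and exon overlaps are from GENCODE 29 (GRCh38). The alternatives tried were a replicate block, a separate fit for each line, each library left out in turn, RLE or upper quartile scaling, no filter or one that asked for 10 reads in all libraries, a threshold of 0.01, and DESeq2 1.42.0. No vehicle library of 36 h was analysed here.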

Additional observations from a re-analysis of the deposited data

Results flagged for a closer look

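The change from T0 to 36 h with each drug differed between the lines when the difference itself was tested with edgeR. It is given as the change in H1650 minus that in PC9 on the log2 scale. No 36 h vehicle library was analysed here, so it includes any difference between the lines in change with time in culture. The difference was called for 43 members with erlotinib, where 40.8% of all tested genes were called, and for 42 with osimertinib, where 41.9% were. Of all tested genes, 21.1% and 21.5% were called with a difference above 0. Among the members described with their values, the erlotinib differences called were CENPN (1.63), CENPI (2.77), CENPC (0.47), DSN1 (1.92), SPC24 (3.92), CENPF (2.13), SKA3 (2.87), SKA2 (1.69), BUB3 (0.82), MAD2L1 (2.86), ZW10 (0.56), BIRC5 (2.45), SGO1 (3.05), SGO2 (1.95), TPX2 (2.46), PLK1 (2.27), AURKA (2.26), CENPP (1.49), NUF2 (2.48), KNL1 (2.35), SKA1 (2.44), ZWILCH (1.67), KNTC1 (2.52), CDC20 (1.92) and CDCA8 (2.59). The osimertinib differences called were CENPN (1.36), CENPI (2.35), DSN1 (1.42), SPC24 (2.97), CENPF (1.78), SKA3 (3.10), SKA2 (1.37), BUB3 (0.80), MAD2L1 (2.42), ZW10 (0.46), BIRC5 (2.24), SGO1 (2.65), SGO2 (2.02), TPX2 (2.41), PLK1 (2.35), AURKA (2.27), CENPP (2.03), NUF2 (3.15), KNL1 (2.19), SKA1 (2.32), ZWILCH (1.03), KNTC1 (1.90), CDC20 (2.22) and CDCA8 (2.17). Each of these was above 0, the fall being larger in PC9. Groups of 2 libraries are too small for a check on single libraries that stand apart, and none was made.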

How the results depend on the processing

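The counts of members called against T0 and between lines stayed within 1.5 times their values under every alternative run. Leaving out 1 library at a time gave 44 to 45 in PC9 with erlotinib, 43 to 44 with osimertinib, 34 to 40 and 38 to 40 in H1650, 41 to 44 and 41 to 42 for the difference between lines, and 22 to 31 at T0. The counts between drugs were less stable. In PC9 the 7 calls became 2 at an adjusted p under 0.01 and 1 to 7 when 1 library was left out. In H1650 the 4 calls became 2 without a filter, 1 at an adjusted p under 0.01 and 0 to 4 when 1 library was left out. The cause was not tested. Single genes were refitted only for the members named by rule, and between drugs only where called. Of these values 3 changed sign, none of them called: CENPC with osimertinib in H1650 (-0.0415 without osimertinib replicate 1, up to 0.127 when others were left out), and at T0 CENPF (-0.0171 without PC9 T0 replicate 1, up to 0.167) and ZW10 (-0.0308 without H1650 T0 replicate 2, up to 0.157). The median difference of all members between drugs in PC9 ranged from -0.0036 to 0.0706. Upper quartile normalization moved the median of all tested genes in PC9 to 0.17 and 0.14, and the members' medians stayed between -2.98 and -2.83 with erlotinib and between -3.07 and -2.86 with osimertinib under all alternatives. Same-numbered libraries of 15 pairs of groups correlated between -0.0671 and 0.0947 in their deviations from the group mean. No large shift was thus shared by replicate number, which does not settle whether the samples were paired. With the replicate block the counts were 45, 44, 40 and 40 against T0, 44 and 42 between lines, 9 and 6 between drugs and 33 at T0. The block also called DSN1 in H1650 with erlotinib (-0.20, adjusted p = 0.0086) and the erlotinib difference of MIS12 between lines (0.35, adjusted p = 0.036).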

Other observations

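Genes of the MuvB and DREAM regulators, whose complexes are known to bind CHR letters, were followed as a list. Of 14, 11 were called lower with each drug in PC9, and 6 and 7 in H1650 with erlotinib and osimertinib, while 2 were called higher in each of the 4 comparisons. Of all tested genes, 29.1% and 28.7% were called lower in PC9 and 18.5% and 17.9% in H1650, and 32.7% with each drug in PC9 and 18% and 17.8% in H1650 were called higher. MYBL2, which encodes B-MYB, changed by -4.01 ± 0.08 and -3.45 ± 0.08 in PC9 and by -0.74 ± 0.07 and -0.74 ± 0.07 in H1650. FOXM1, the activator of late cell cycle genes, changed by -2.42 ± 0.08 and -2.74 ± 0.08 in PC9, and LIN9, a core subunit of MuvB, by -2.46 ± 0.13 and -2.72 ± 0.14. RBL2, which encodes the p130 protein of the repressive complex, rose by 1.08 ± 0.08 and 1.20 ± 0.08 in PC9 and by 0.31 ± 0.07 and 0.26 ± 0.07 in H1650, while its relative RBL1 fell by 2.75 and 2.98 on the log2 scale in PC9. MYBL2, FOXM1, LIN9 and RBL1 were the only 4 of the 14 that fell by more than 4-fold in PC9 with each drug. In H1650, 6 of the 14 were not called with erlotinib and 5 with osimertinib. The medians of the list were -1.16, -0.80, -0.16 and -0.27.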
